A study of Homo sapiens with 6 samples.

Results

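The 10 genes described here encode enzymes that desaturate, elongate, activate, build into membranes or oxidize fatty acids, and they were taken by symbol from a table of 3511 genes. They are the desaturases FADS1 and FADS2, the elongase ELOVL6, the acyl-CoA synthetases ACSL3 and ACSL4, the acyltransferase MBOAT1, the oxidation genes CPT1A, HADH and HADHB, and the kinase PDK4. All 10 were found, and each matched a single row. RNA was sequenced from RKO, a line of human colorectal cancer cells labelled as wild type, kept for 48 h in one of 2 media. Fasting medium, given to 3 libraries, had serum at 1% and glucose at 1 g/L. Control medium, also given to 3, had serum at 10% and glucose at 4.5 g/L. Serum and glucose were lowered together, so their parts cannot be told apart. Nothing says whether the 3 libraries of a medium came from separate cultures, so the p-values measure the spread between these libraries, which may be technical.

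Fatty acids reach a cell from serum or are made in it, and become usable once an acyl-CoA synthetase has joined them to coenzyme A. Desaturases and elongases then alter the acyl chain, and acyltransferases place it in phospholipids, where polyunsaturated chains are the substrate of the lipid peroxidation that drives ferroptosis. The alternative fate is oxidation in mitochondria, which is gated by carnitine palmitoyltransferase at the outer membrane. In liver and muscle, fasting of the whole animal is known to raise CPT1A and PDK4 through PPAR, FOXO and ERR transcription factors.

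Values are normalized counts, which are the reads of a gene divided by a size factor of its library. The table holds only genes that the authors had called, with adjusted p of up to 0.04999 in the authors' deposited table, or 11.8% of 29845 genes tested, a number worked out from their p-values and adjusted p-values. Reads in the listed genes numbered 4187326 to 5071791 per fasting library and 4017618 to 5602177 per control library. Total depth is unknown. Of all 3511 listed genes, 94.3% passed the limma test used here (adjusted p under 0.05), 49.7% higher and 44.6% lower in fasting medium, and in 100% the libraries of one medium lay beyond those of the other. A call, or groups that do not overlap, is therefore what almost any listed gene shows, and only direction, size and steadiness set the 10 genes apart from one another. Fasting replicate 3 stood apart from the other fasting libraries by transcript length. Set against their mean, its median difference was 0.44 log2 units among the 558 shortest transcripts (up to 2181 bases) and -0.50 among the 556 longest (from 5711 bases). Only genes averaging 100 normalized counts or more were used for these medians.

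In fasting medium 2 of the 10 genes rose, ACSL3 and HADHB, and 7 fell, namely FADS1, FADS2, ELOVL6, MBOAT1, CPT1A, HADH and PDK4. The remaining gene, ACSL4, had a higher mean in fasting medium but just missed the threshold. The median log2 fold change of the 10 was -0.64, against 0.53 over all 3511 listed genes. Its median size without sign was 0.69 for the 10 and 0.97 for all listed genes, so these were modest changes among the listed genes. Without fasting replicate 3 all 10 passed, when 99.9% of the listed genes did.

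The stretches of DNA upstream of 5 of these genes are shown first, since genes of a pathway that move together, or apart, invite a look at the letters before their start sites. They come from RefSeq (GRCh38.p14), which held a window of 250 bases before the start site for 9 of the 10 genes. Each stretch is the longest part of that window outside annotated untranslated regions, on the strand of the gene, and capitals mark motif matches. The first group, ELOVL6 at chr4:110198677-110198841 (minus strand), CPT1A at chr11:68844411-68844527 (minus) and PDK4 at chr7:95596517-95596766 (minus), belongs to genes that fell. The second, ACSL3 at chr2:222860786-222860933 (plus) and ACSL4 at chrX:109733404-109733507 (minus), belongs to the acyl-CoA synthetases with higher means in fasting medium.
ELOVL6: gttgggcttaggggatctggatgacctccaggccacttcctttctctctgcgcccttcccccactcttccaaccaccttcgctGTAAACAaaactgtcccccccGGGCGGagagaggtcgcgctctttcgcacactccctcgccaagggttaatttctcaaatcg
CPT1A: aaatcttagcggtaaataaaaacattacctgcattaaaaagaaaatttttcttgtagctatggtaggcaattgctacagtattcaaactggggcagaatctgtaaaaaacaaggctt
PDK4: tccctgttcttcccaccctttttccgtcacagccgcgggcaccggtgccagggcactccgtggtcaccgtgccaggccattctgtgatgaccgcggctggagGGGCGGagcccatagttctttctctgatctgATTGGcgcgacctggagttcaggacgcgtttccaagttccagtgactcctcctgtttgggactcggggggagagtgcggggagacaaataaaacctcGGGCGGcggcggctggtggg
ACSL3: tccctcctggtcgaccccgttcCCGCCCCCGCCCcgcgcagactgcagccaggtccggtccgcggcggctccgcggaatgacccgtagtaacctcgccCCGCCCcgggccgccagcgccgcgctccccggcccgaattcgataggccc
ACSL4: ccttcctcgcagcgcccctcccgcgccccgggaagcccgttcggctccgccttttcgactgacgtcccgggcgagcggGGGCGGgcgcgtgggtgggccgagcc

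Both strands of the windows were searched for 7 motifs. The forkhead (FOXO) element GTAAACA stands in the ELOVL6 stretch and in 2.98% of the 35116 RefSeq windows. The CCAAT box, which PDK4 holds as its reverse complement ATTGG, also lies in the windows of ACSL3 and HADH, outside any printed stretch, and in 32% of all windows. The GC box GGGCGG or its complement marks the remaining capitals. It was present in 8 of the 11 windows of the 9 genes with a window, in every gene but CPT1A, and in 42.6% of all windows. The sterol regulatory element, the PPAR element, the ERR element TCAAGGTCA and the ATF4 element TGATGCAA matched in none of the 11 windows of these 9 genes. They occur in 0.125%, 0.268%, 0.319% and 0.772% of all windows. A match describes letters and no match says only that these letters are not in this window.

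FADS1 (ENSG00000149485) encodes the desaturase that completes arachidonic and eicosapentaenoic acid. It had 5.08, 7.32 and 4.13 normalized counts in fasting replicates 1 to 3, against 19.7, 24.2 and 19.6 in control replicates 1 to 3. Every fasting library lay below every control library, with the lowest control 2.68 times the highest fasting value. These are few reads. There were 14 in all from the fasting libraries and 81 from the controls, and the ratio of the summed rates was 0.266 (95% exact conditional binomial interval 0.139 to 0.472, counting error only). FADS1 fell by 1.79 on the log2 scale (SE 0.26, limma adjusted p = 2.60e-03), or 3.46-fold lower in fasting medium. The authors' deposited table gives a log2 fold change of -1.94. The call held in all 17 alternatives that kept the gene, at adjusted p = 2.71e-04 to 0.0277.

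FADS2 (ENSG00000134824) catalyses the first desaturation of the same route and lies beside FADS1 on the opposite strand. Its normalized counts were 180.3, 221 and 249 in the fasting libraries and 358, 404 and 408 in the controls, with no overlap. It fell by 0.86 (SE 0.14, limma adjusted p = 4.59e-03), or 1.81-fold. Fasting replicate 3 was the highest of the fasting libraries for FADS2 and the lowest for FADS1. In GENCODE 29 the exons of the neighbours share 490 bases on opposite strands, 4.79% of the exonic bases of FADS1 and 4.44% of those of FADS2. The library kit was directional per the labels, but the sources used here do not say if counting was by strand, so reads from the shared bases may have been assigned to either gene.

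ELOVL6 (ENSG00000170522) lengthens saturated and monounsaturated chains of 16 carbons. It had 1292, 1297 and 1218 normalized counts in fasting medium and 1915, 1929 and 1810 in control medium. All fasting values lay below all control values and the spread was small in both groups, with a coefficient of variation of 3.48% in fasting and 3.46% in control libraries. ELOVL6 fell by 0.57 (SE 0.08, limma adjusted p = 1.94e-03), or 1.48-fold. With 6454 bases it is the longest transcript of the 10. When a trend with transcript length was removed from every library its log2 fold change was -0.18 and no longer passed (adjusted p = 0.684).

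**Figure D1:**
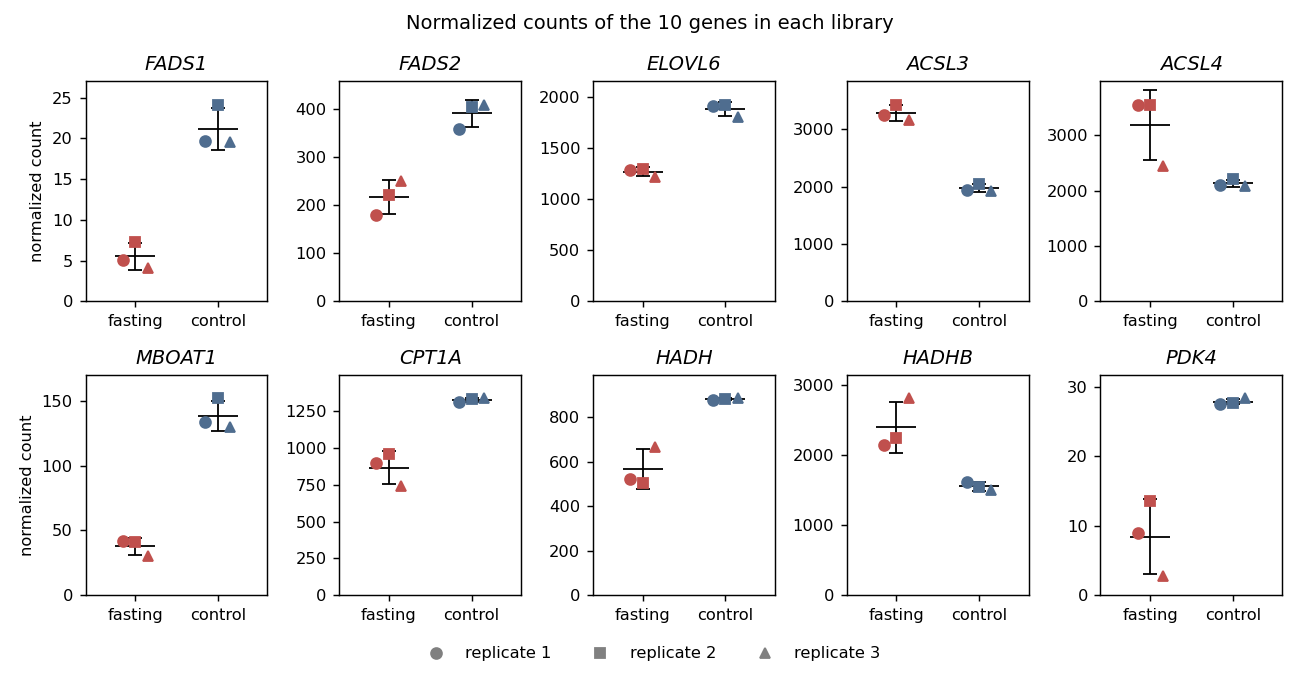
Normalized counts (vertical axes, linear and from 0) of each gene in 3 fasting (left, red) and 3 control (right, blue) libraries, with marker shape for the replicate and bar and whiskers for mean and SD. The groups separate in every panel, ACSL4 shows the narrowest gap, with fasting replicate 3 at 2452, and FADS1 and PDK4 stay below 30.

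ACSL3 (ENSG00000123983) activates mainly saturated and monounsaturated fatty acids at the endoplasmic reticulum and lipid droplets. Its normalized counts were 3246, 3430 and 3159 in the fasting libraries and 1946, 2046 and 1920.2 in the controls. The groups did not overlap and fasting replicate 3 lay close to the other fasting libraries. ACSL3 rose by 0.73 (SE 0.08, limma adjusted p = 6.28e-04), or 1.66-fold. Among the 18 alternatives it lost its call only when scaled to total reads in the listed genes (total-read scaling), at 0.26 (adjusted p = 0.306).

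ACSL4 (ENSG00000068366) prefers arachidonic acid and similar chains, and cells without it are known to resist ferroptosis. It had 3556, 3544 and 2452 normalized counts in fasting medium, against 2098, 2209 and 2091 in control medium. Fasting replicate 3 was much lower than the other fasting libraries and only 1.11 times the highest control. The log2 fold change was 0.56 (SE 0.15, 95% interval 0.22 to 0.90, limma adjusted p = 0.0508), so ACSL4 did not pass, while the authors' deposited table gives 0.58 and an adjusted p of 0.0346. Without fasting replicate 3 the log2 fold change was 0.74 and passed (limma adjusted p = 3.27e-08), when 99.9% of the listed genes did. Leaving out any other single library gave a limma adjusted p of 0.138 to 0.207. The mean was higher in fasting medium in all 18 alternatives, of which 7 passed, over a range of 0.08 with total-read scaling to 0.83 with the length trend removed.

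MBOAT1 (ENSG00000172197) transfers acyl groups, preferably oleate, to lysophospholipids and has been described as a suppressor of ferroptosis. Its normalized counts were 41.9, 40.8 and 30.3 in fasting medium and 134, 152 and 130.1 in control medium. The lowest control was 3.11 times the highest fasting value, the widest gap of the 10 genes. MBOAT1 fell by 1.87 (SE 0.17, limma adjusted p = 3.25e-04), or 3.64-fold, and passed in all 18 alternatives (log2 fold change -2.33 to -1.65). At 1794 bases its transcript is the shortest of the 10, yet its level in fasting replicate 3 was lower than in the rest of that group, a difference of -0.44 log2 units. The 558 transcripts of similar length, all averaging 100 normalized counts or more, had a median of 0.44, in the opposite direction. MBOAT1 averaged fewer, with 33, 39 and 22 reads in fasting replicates 1 to 3.

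**Figure D2:**
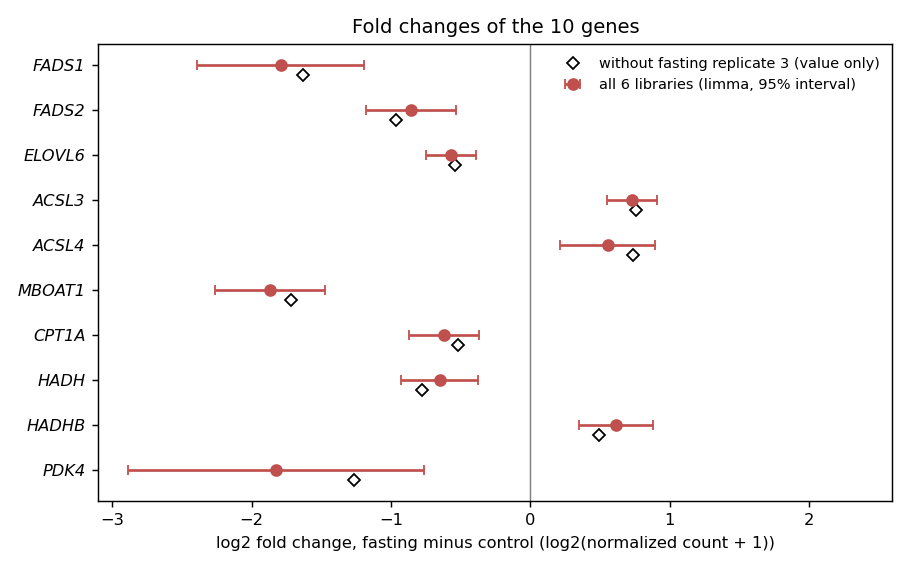
Log2 fold change (horizontal axis, fasting minus control) of each gene with its 95% interval from limma (red), and the value without fasting replicate 3 (open diamonds). FADS1, MBOAT1 and PDK4 lie lowest, ACSL3, ACSL4 and HADHB lie above 0, and PDK4 has the widest interval, -2.89 to -0.76.

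CPT1A (ENSG00000110090) encodes the outer-membrane carnitine palmitoyltransferase that admits long-chain acyl groups to oxidation. It had 899, 959 and 744 normalized counts in fasting medium and 1313, 1333 and 1338 in control medium. The control libraries were almost equal, and each fasting library lay below them. CPT1A fell by 0.62 (SE 0.11, limma adjusted p = 6.22e-03), or 1.54-fold. With RLE scaling the log2 fold change was -0.42 (adjusted p = 0.0695).

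HADH (ENSG00000138796) encodes the mitochondrial dehydrogenase of the third step of beta-oxidation for medium and short chains. Its normalized counts were 523, 505 and 668 in fasting medium and 877, 884 and 885 in control medium. HADHB (ENSG00000138029), the thiolase subunit of the trifunctional protein that handles long chains, had 2138, 2243 and 2808 in fasting medium and 1613, 1548 and 1496 in control medium. Neither gene overlapped between media, and both were highest in fasting replicate 3 among the fasting libraries. HADH fell by 0.65 (SE 0.12, limma adjusted p = 8.24e-03), or 1.57-fold, while HADHB rose by 0.62 (SE 0.11, adjusted p = 8.80e-03), or 1.53-fold. HADHB lost its call with total-read scaling (0.14, adjusted p = 1.00) and without control replicate 3 (0.59, adjusted p = 0.0548). HADHA, which encodes the partner subunit of HADHB, was not listed.

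PDK4 (ENSG00000004799) encodes a kinase that switches off pyruvate dehydrogenase and so spares glucose when fat is burnt. It had 8.89, 13.6 and 2.75 normalized counts in fasting medium, against 27.6, 27.7 and 28.3 in control medium. The controls were nearly identical, and the fasting libraries were lower and far apart, with 7, 13 and 2 reads. The ratio of the summed rates was 0.319 (95% exact conditional binomial interval 0.192 to 0.508, counting error only, without the spread between libraries). PDK4 fell by 1.83 (SE 0.46, limma adjusted p = 0.0401), or 3.54-fold. Without fasting replicate 3 the log2 fold change was -1.27 (adjusted p = 1.12e-03). The call was lost on leaving out fasting replicate 1 (adjusted p = 0.0806) or control replicate 1, 2 or 3 (0.137, 0.131 and 0.160), and also with a pseudocount of 0.1 (0.0632) and RLE scaling (0.0798).

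Levels between genes were compared as normalized counts per kilobase of the longest protein-coding transcript. In fasting medium the order of these levels ran from HADHB (1119) through ACSL4 (597), ACSL3 (577), HADH (278), ELOVL6 (197), CPT1A (166), FADS2 (59.7), MBOAT1 (21.0) and PDK4 (2.35) to FADS1 (1.22). The ranges over libraries overlapped for ACSL4 and ACSL3 and for PDK4 and FADS1, and for no other neighbours. In control medium HADH stood second (434), between HADHB (725) and ACSL4 (400), and no neighbours overlapped. HADHB therefore led in both media, and FADS1 was last in both, at 4.68 in control medium.

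Ratios between 2 genes of the same library hardly depend on the size factor. With 3 libraries against 3 the exact two-sided permutation test cannot give a p below 0.1, so none of the 5 ratios tested could pass. The log2 ratio of HADHB to HADH was 2.03, 2.15 and 2.07 in fasting libraries and 0.88, 0.81 and 0.76 in control libraries. It was higher in every fasting library, by 1.27 log2 units or 2.41-fold (exact permutation p = 0.1, adjusted p = 0.125). With transcripts of 2032 and 2142 bases this pair is almost matched in length, and fasting replicate 3 lay within the range of the other fasting libraries.

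The log2 ratio of MBOAT1 to ACSL4 averaged -6.36 ± 0.06 in fasting medium and -3.94 ± 0.07 in control medium (SD, n = 3 each). That is a difference of -2.42, or 5.36-fold lower (exact permutation p = 0.1, adjusted p = 0.125). This was the widest separation of the 5. FADS1 against FADS2 averaged -5.08 ± 0.46 in fasting medium and -4.15 ± 0.15 in control medium (SD, n = 3 each, exact permutation p = 0.1, adjusted p = 0.125). PDK4 against CPT1A averaged -6.73 ± 0.82 in fasting medium and -5.52 ± 0.01 in control medium (SD, n = 3 each, exact permutation p = 0.1, adjusted p = 0.125). The differences, -0.94 and -1.20, were -0.67 and -0.75 without fasting replicate 3. With a pseudocount of 10 they were -0.18 (exact permutation p = 0.5) and -0.47, and both rest on genes with few reads. ACSL4 against ACSL3 averaged -0.06 ± 0.27 in fasting medium and 0.11 ± 0.01 in control medium (SD, n = 3 each), with overlapping libraries (exact permutation p = 0.4, adjusted p = 0.4). Without fasting replicate 3 the difference of these synthetases was -0.02.

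**Figure D3:**
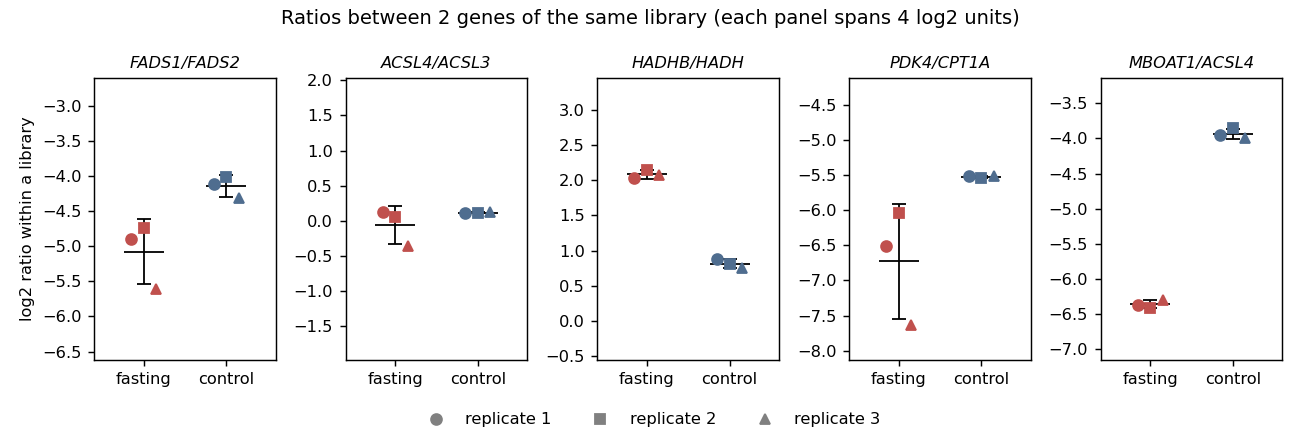
Log2 ratio of 2 genes within a library (vertical axes, each spanning 4 log2 units) for 3 fasting (left, red) and 3 control (right, blue) libraries, with mean and SD. The HADHB to HADH and MBOAT1 to ACSL4 ratios are tight in both media and far apart, while ACSL4 to ACSL3 overlaps.

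Fasting replicate 3 was the highest fasting library for FADS2, HADH and HADHB and the lowest for the other 7 genes. With the genes split into 5 length groups, HADH and HADHB had differences of 0.38 and 0.36 log2 units from the rest of the fasting group, near the median of 0.44 for the shortest transcripts. CPT1A and ACSL4, at 5232 and 5333 bases, differed by -0.32 and -0.53, where the median of their length group was -0.20. ELOVL6, the longest transcript, differed by -0.09, where the median of its group was -0.50, and FADS2 by 0.32, where it was 0.02. PDK4 and MBOAT1 were the farthest of the 10 genes from their medians, at -1.68 against 0.02 and -0.44 against 0.44. The medians come from genes averaging 100 normalized counts or more, which FADS1, PDK4 and MBOAT1 do not reach. PDK4 had 2 reads in fasting replicate 3 against 7 and 13 in replicates 1 and 2, and MBOAT1 22 against 33 and 39. The part of counting error was not tested. The part that transcript length plays in these differences was not tested for single genes.

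**Figure D4:**
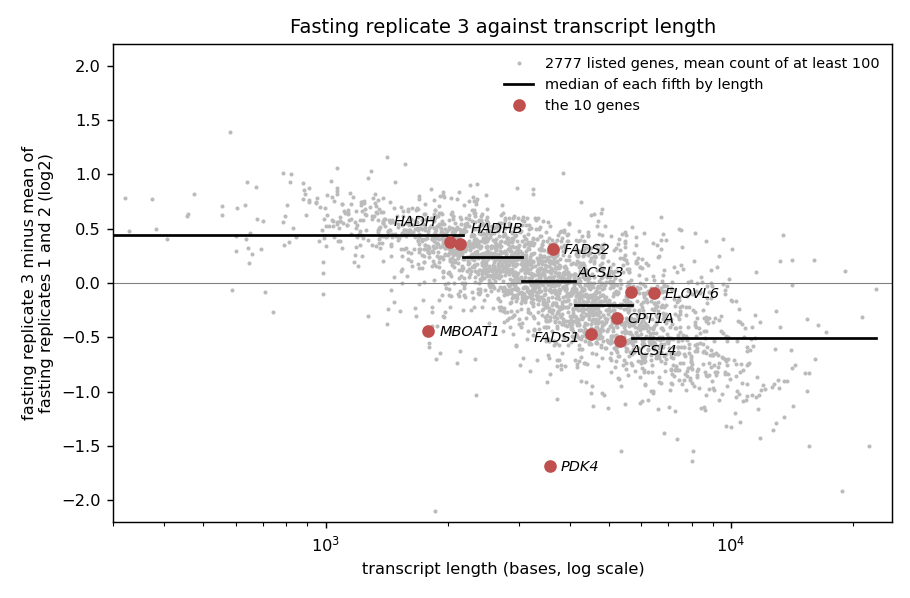
Difference of fasting replicate 3 from the mean of fasting replicates 1 and 2 (vertical axis, log2) against transcript length (horizontal axis, log scale) for 2777 listed genes averaging 100 normalized counts or more (grey, 4 of them outside the axes), the median of 5 length groups (black) and the 10 genes (red). PDK4 and MBOAT1, which average fewer than 100 counts and rest on few reads, lie well below the grey genes of their length. HADH, HADHB and CPT1A lie near those of theirs.

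The wider pathways were read from 14 lists, which hold 203 genes besides the 10. Of these 34 were listed (16.7%), against 11.8% of all genes the authors tested. The lists were chosen with earlier results of these data known, and the tested genes were not matched to them in kind or level. Whether these pathways are listed more often than comparable genes was not tested. Among the 34, 15 rose and 19 fell by the limma test, with a median log2 fold change of -0.59, and the same counts passed without fasting replicate 3.

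Stearoyl-CoA desaturases, which make monounsaturated fatty acids, went apart. SCD, with 13054 ± 2475 normalized counts in fasting and 8161 ± 413 in control medium (SD, n = 3 each), rose by 0.66 (limma adjusted p = 0.0204), and SCD5 fell by 0.56 (adjusted p = 2.53e-03). The rise of SCD lost its call without variance moderation, with total-read scaling and when any library but fasting replicate 3 was dropped. Desaturases thus had 4 of 8 genes listed, of which 1 rose and 3 fell. In elongation 3 of 13 genes were listed. HSD17B12, the reductase of the elongation cycle, rose by 0.80 (adjusted p = 5.82e-04) while HACD2, a dehydratase of the cycle, fell by 0.62 (adjusted p = 3.43e-03), as ELOVL6 did. HSD17B12 lost its call with total-read scaling. Of 12 genes of fatty acid synthesis 2 were listed and fell. ACACB, whose product malonyl-CoA inhibits CPT1A, fell by 1.23 and mitochondrial acetyl-CoA synthetase ACSS1 by 0.61 (adjusted p = 0.0265 and 0.0190). Both lost their calls without moderation, with RLE scaling and without control replicate 1, 2 or 3, and ACSS1 also with the replicate block and without fasting replicate 2.

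Among 20 acyl-CoA synthetases 4 were listed, 2 of which rose and 1 fell. ACSL5, a mitochondrial and endoplasmic reticulum enzyme, had 223 ± 25 normalized counts in fasting and 80.6 ± 10.1 in control medium (SD, n = 3 each) and rose by 1.46 (adjusted p = 5.45e-04), a larger log2 fold change than those of ACSL3 and ACSL4. SLC27A3 fell by 0.82 (adjusted p = 4.32e-03). The thioesterase list, enzymes that release fatty acids from coenzyme A, had 2 of 13 listed and both rose. They are mitochondrial ACOT9 (0.96, adjusted p = 4.00e-04) and BAAT, which joins bile acids to amino acids (28 reads in fasting and 9 in control libraries, adjusted p = 0.0330). BAAT passed in 11 of 17 alternatives, and not without fasting replicate 1 or 2 or control replicate 1 or 2.

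All 4 listed of 19 phospholipid acyltransferases fell, with a median of -1.26, when 44.6% of all listed genes were called lower. Unlisted genes of this group have no value here. LPCAT1, which remodels phosphatidylcholine with saturated chains, had 2295 ± 138 normalized counts in fasting and 5613 ± 202 in control medium (SD, n = 3 each) and fell by 1.29 (adjusted p = 7.13e-05). LCLAT1, which acylates cardiolipin and lysophosphatidylinositol, fell by 1.07 (adjusted p = 2.62e-03). GPAM, a mitochondrial glycerol-3-phosphate acyltransferase named here after its values were seen, fell by 1.22 (adjusted p = 7.76e-03). MBOAT1 is the other gene of this group. LCLAT1 and GPAM were lowest in fasting replicate 3, with differences of -0.53 and -0.82 log2 units from the rest of that group, and without it their log2 fold changes were -0.90 and -0.95.

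In the carnitine shuttle 2 of 8 genes were listed and both fell, CPT1A and CROT, a peroxisomal carnitine octanoyltransferase (-1.41, adjusted p = 6.37e-04). Mitochondrial beta-oxidation had 2 of 22 genes listed, HADH and HADHB, or 9.09%. Of all genes tested 11.8% were listed, a base not matched to this list. Of 16 peroxisomal genes 4 were listed, and 3 of them fell. ABCD3, a peroxisomal acyl-CoA transporter, fell by 0.68 (adjusted p = 1.64e-03) and the enoyl-CoA reductase PECR by 0.70 (adjusted p = 0.0105). EHHADH, the bifunctional enzyme, named after its values were seen, fell by 0.78 (adjusted p = 0.0484) and passed in 10 of 18 alternatives, and not without fasting replicate 1 or control replicate 1, 2 or 3. PECR lost its call with RLE scaling and without control replicate 2 or 3. The riser was ABCD4 (0.88, adjusted p = 7.81e-04), which is known for exporting cobalamin from lysosomes rather than for oxidation.

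Around pyruvate dehydrogenase 3 of 14 genes were listed. PDK3, another kinase that inhibits the complex, fell by 0.92 (adjusted p = 0.0103), as PDK4 did, and the phosphatase PDP1, which reactivates the complex, had 1257 ± 229 normalized counts in fasting and 618 ± 24 in control medium (SD, n = 3 each) and rose by 1.01 (adjusted p = 2.17e-03). PDP1 lost its call under total-read scaling and without moderation, and PDK3 without moderation and without control replicate 1. Among PPAR and ERR regulators 1 of 12 was listed, RXRB, a partner receptor of PPAR, which rose by 0.56 (adjusted p = 7.69e-03). Of 12 known PPAR targets 3 were listed. TXNIP, an inhibitor of glucose uptake, fell by 0.99 (adjusted p = 2.62e-04) and the lipase inhibitor ANGPTL4 by 0.63 (adjusted p = 0.0282), while the lipid droplet coat gene PLIN2 rose by 0.77 (adjusted p = 8.77e-03). In the lipid droplet list, 3 of 22 listed, LPIN2, a phosphatidate phosphatase, rose by 0.79 (adjusted p = 5.23e-03) beside PLIN2, and the lipase LIPE fell by 0.66 (adjusted p = 0.0229). ANGPTL4 and LIPE each passed in 11 of 18 alternatives and lost their calls without any library but fasting replicate 3. RXRB, PLIN2 and LPIN2 lost theirs with total-read scaling, RXRB also without control replicate 2, and PLIN2 and LPIN2 also without moderation.

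The list for release and oxygenation of polyunsaturated fatty acids had 8 of 23 genes listed, with 5 rising and 3 falling. It counts cytochrome b5 (CYB5A, falling) and its reductases CYB5R1 (rising) and CYB5R3 (falling), which are not enzymes of release or oxygenation. These genes and ALOX12B, a riser, are named after their values were seen. CYB5A passed in 8 of 18 alternatives, ALOX12B in 8 of 17, CYB5R3 in 11 of 18 and CYB5R1 in 16 of 18. PTGS2, ALOXE3, PTGES3 and PLA2G12A passed in all 18. PTGS2, which encodes cyclooxygenase-2, had 373 ± 59 normalized counts in fasting and 10.4 ± 2.9 in control medium (SD, n = 3 each) and rose by 5.05 (adjusted p = 2.11e-05). ALOXE3, a lipoxygenase-family hydroperoxide isomerase, had 294 ± 23 in fasting and 49.0 ± 8.6 in control medium and rose by 2.57 (adjusted p = 5.63e-05). PTGES3, a prostaglandin E synthase also known as the HSP90 co-chaperone p23, rose by 1.09 (adjusted p = 1.10e-03). The secreted phospholipase PLA2G12A fell by 0.79 (adjusted p = 2.75e-03). PTGS2 thus had a far larger log2 fold change than any of the 10 genes.

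**Figure D5:**
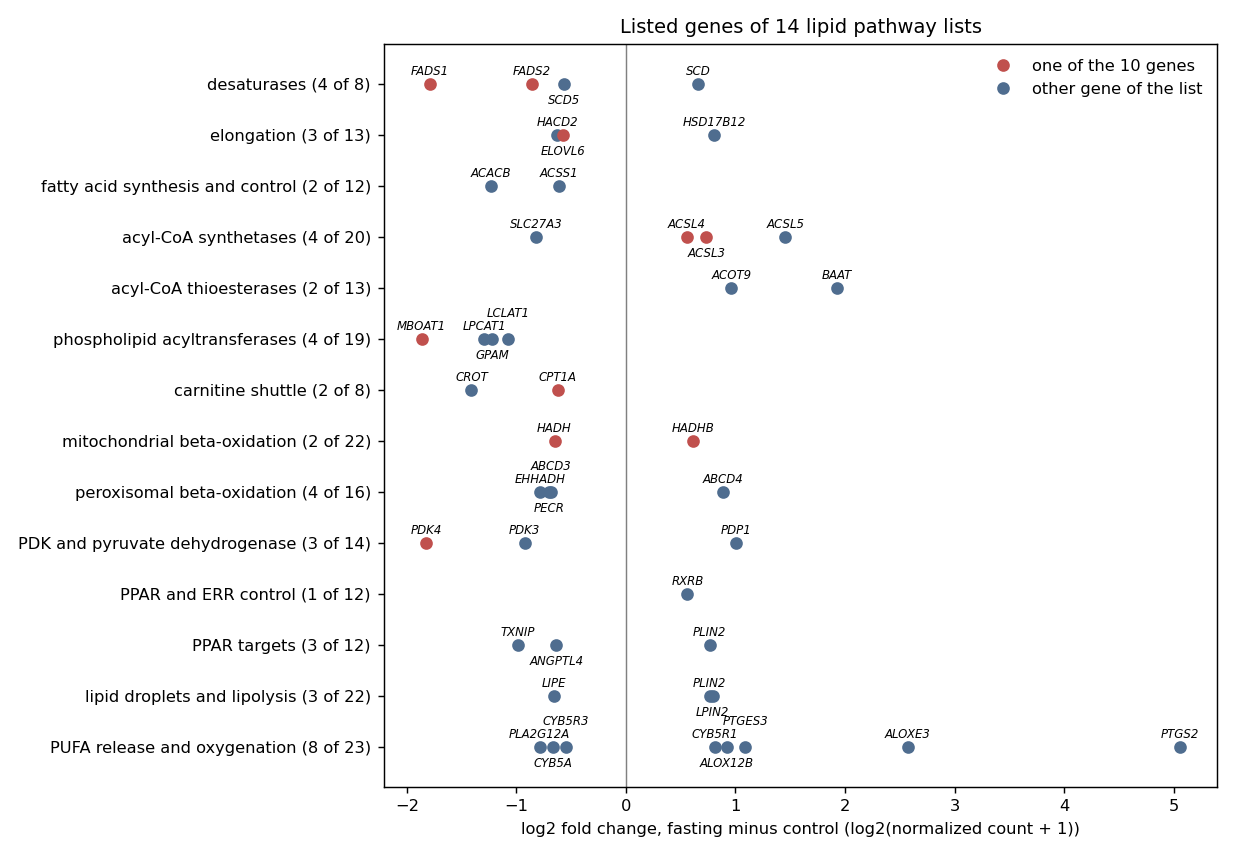
Log2 fold change (horizontal axis, fasting minus control) of every listed gene in 14 pathway lists, with the number listed of the number in the list beside each name, the 10 genes in red and other genes in blue. All 4 listed phospholipid acyltransferases lie below 0, and PTGS2 lies farthest right.

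Patterns across the 6 libraries were compared by Euclidean distance of log2 values centred on each gene. Among the listed genes nearest to FADS1 were BARD1 (distance 0.21) and SLF1 (0.33). The pattern of FADS1 rests on 14 fasting reads, whereas BARD1 and SLF1 averaged 140 and 108 normalized counts in fasting medium. The nearest to ACSL4 were ZFX (0.04), SIRT1 (0.06) and ZBTB11 (0.08), all lowest, within the fasting group, in replicate 3. Whether near genes share any control was not tested.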

How the data were processed

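Directional libraries were made from total RNA, per the labels' protocols. DESeq 1.10.1, HTSeq 0.6.1 and UMI-tools 1.0.0 are listed in the submitters' processing notes without their roles. Aligner, build and gene models were not given in the sources used here. The deposited sample columns hold normalized counts, a signal equal to reads divided by a size factor, as the authors left it. Whole reads were recovered for 100% of values (tolerance 0.01 read). The authors also deposited p-values, raw and adjusted, and a log2 fold change per gene, and listed only called genes.

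Here, limma 3.58.1 (variance trend, empirical Bayes) was fitted to log2(normalized count + 1) of the 3511 genes (minimum mean 1 in either group). All 10 genes passed that filter. Fold changes are fasting minus control on this scale, which understates changes of low genes, and SD and n refer to normalized counts. Benjamini-Hochberg adjustment of the limma results counted 29845 genes, and unlisted genes were taken as not significant at all (a p-value of 1). That number is the median of adjusted p times rank over p in the authors' deposited columns. Tests were two-sided, at a threshold of 0.05. The moderation was estimated on genes selected for their difference. The alternatives used edgeR 4.0.16 and DESeq2 1.42.0 on the recovered reads, among other settings, and the fits were tested on simulated data.

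The 10 genes and the lists were chosen with earlier results of these data known. The text names all 10, in each list the 3 genes of lowest adjusted p and the best called gene moving the other way, and the 3 genes nearest in pattern to FADS1 and to ACSL4, of which 1 is not reported here. Gene symbols matched 3467 of 3511 identifiers. Transcript lengths and exons are from GENCODE 29 (98.7% of listed genes had a length). No pairing is given in the labels, and same-numbered libraries deviated together no more than others (see the dependence on processing). No pairing was used in the main test.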

Additional observations from a re-analysis of the deposited data

How the results depend on the processing

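Across 18 alternatives (17 for the low genes FADS1 and PDK4, absent under a minimum mean of 100) no direction of the 10 genes turned. FADS1 and MBOAT1 passed in all of them. Falling genes numbered 7 and rising genes 2. Without variance moderation the counts were 3 lower and 1 higher, with total-read scaling 0 were higher, with RLE scaling 5 were lower, and leaving out 1 library gave 1 to 3 higher and 6 to 7 lower. edgeR and DESeq2 on the recovered reads each gave 3 higher and 7 lower. Without moderation the calls of FADS2, CPT1A, HADH, HADHB and PDK4 were lost (adjusted p = 0.0616 to 0.318). Total-read scaling shifted the log2 fold changes by a median of -0.48 and RLE scaling by 0.20. Both were worked out from reads in the listed genes alone, so total-read scaling did not use a library's full depth, which is unknown. The listed genes cannot decide between scalings.

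For the other pathway genes, 15 rose and 19 fell. Without moderation these were 8 and 9, with total-read scaling 6 rose, with RLE scaling 11 fell, and leaving out 1 library gave 11 to 15 risers and 11 to 19 fallers, the 11 fallers without control replicate 1, 2 or 3. Over all listed genes, 1745 rose and 1567 fell, against 1134 and 847 without moderation, and 862 rose and 1708 fell with total-read scaling. The cause of these shifts was not tested.

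Same-numbered fasting and control libraries had correlations of deviations of 0.03, 0.03 and 0.08 over 2785 genes. Pairs with different numbers ranged from -0.11 to 0.10. With 3 libraries per medium this cannot tell if same-numbered libraries shared a culture, day or batch, on which the labels are silent. With the replicate block 3 of the 10 genes rose, ACSL4 among them (adjusted p = 0.0420), and 7 fell. A block over same-numbered pairs, added after seeing the data, cannot change the ratio differences (-0.94, -0.18, 1.27, -1.20 and -2.42). The mean of paired differences equals the difference of the means. The exact permutation p of that block was 0.25 to 0.5, and over 3 pairs it cannot go below 0.25. FADS1 (14 fasting reads) and PDK4 (22) are limited by depth. With a pseudocount of 10 their log2 fold changes were -1.01 and -1.09, and the FADS1 to FADS2 difference was -0.18.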

Other observations

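Markers of cell types were hardly present in the selected table, so the label of the cells could not be checked beyond them. Of 10 colorectal epithelial markers 1 was listed, the keratin gene KRT18, with 2460 ± 816 normalized counts in fasting and 723 ± 58 in control medium (SD, n = 3 each). It rose by 1.72 (limma adjusted p = 1.08e-03). None of 9 fibroblast markers was listed. Of 8 immune markers CD14 was listed, with 8.08 ± 0.40 in fasting and 0.81 ± 0.15 in control medium (SD, n = 3 each), or 6, 8 and 6 reads in fasting and 1 in each control library.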
